A study of Mus musculus with 9 samples.

Results

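Guanylate-binding proteins (GBPs) and immunity-related GTPases (IRGs) were followed in mouse macrophages that received lipopolysaccharide (LPS) with the inhibitor NCT503, LPS alone, or medium alone. The 10 genes, taken by name from both deposited tables, are the GBPs Gbp2, Gbp3, Gbp4, Gbp5, Gbp6, Gbp7 and Gbp9 and the IRGs Irgm1, Irgm2 and Igtp, out of 24187 genes in either table and 21434 in both. All 10 were in both tables and passed the filter on low values in every comparison. The cells were grown from bone marrow of C57BL/6 mice aged 8 weeks, with 10 ng/ml of macrophage colony-stimulating factor (M-CSF) for 6 days. RNA-seq libraries were made in 3 groups of 3: LPS (500 ng/ml) with NCT503 (50 µM) for 6 h, LPS (500 ng/ml) for 6 h, and control medium for 6 h. NCT503 blocks phosphoglycerate dehydrogenase (PHGDH), which catalyses the opening step of serine synthesis. No group received NCT503 without LPS. Nothing in the labels says that the replicates came from separate cultures or mice, so the spread behind each p-value is that between libraries and may be technical.

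GBPs and IRGs are large GTPases that cells make in response to interferons. They gather on bacteria, and on the vacuoles in which bacteria and parasites live, and help to open them, which exposes the pathogen and its LPS to cytosolic sensors. The Irgm proteins and Igtp (also called Irgm3) sit on host membranes and hold the effector IRGs inactive there, whereas effector IRGs such as Iigp1, Tgtp1 and Tgtp2 load onto the vacuole. In macrophages LPS sets off interferon-β production through the adaptor TRIF, and this interferon acts back on the cells through STAT and IRF transcription factors. Those factors bind the interferon-stimulated response element (ISRE) and, downstream of interferon-γ, the gamma-activated site (GAS).

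The start regions of the genes are shown first, with their matches to both interferon motifs. RefSeq start windows (GRCm38.p6, from 250 bases before to 50 bases after the start) were found for 7 of the 10 members (Gbp2, Gbp3, Gbp5, Gbp7, Irgm1, Irgm2 and Igtp), and 5 are printed: the 3 IRGs, whose fold changes under NCT503 were spread more widely than those of the GBPs, and Gbp5 and Gbp2, the GBPs with the highest level per kilobase in LPS. The windows lie at chr11:48871371-48871670 on the minus strand for Irgm1, chr11:58214727-58215026 on the plus strand for Irgm2, chr11:58199306-58199605 on the plus strand for Igtp, chr3:142496684-142496983 on the plus strand for Gbp5 and chr3:142620413-142620712 on the plus strand for Gbp2. Capitals mark matches to GAAANNGAAA (the ISRE core) or TTCNNNGAA (GAS), searched on both strands, so that an ISRE core on the other strand reads TTTCNNTTTC.
Irgm1: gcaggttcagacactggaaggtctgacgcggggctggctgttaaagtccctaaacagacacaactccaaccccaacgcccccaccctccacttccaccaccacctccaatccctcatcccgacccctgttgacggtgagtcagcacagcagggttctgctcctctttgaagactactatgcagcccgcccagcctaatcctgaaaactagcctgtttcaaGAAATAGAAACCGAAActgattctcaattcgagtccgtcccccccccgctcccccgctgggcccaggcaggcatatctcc
Irgm2: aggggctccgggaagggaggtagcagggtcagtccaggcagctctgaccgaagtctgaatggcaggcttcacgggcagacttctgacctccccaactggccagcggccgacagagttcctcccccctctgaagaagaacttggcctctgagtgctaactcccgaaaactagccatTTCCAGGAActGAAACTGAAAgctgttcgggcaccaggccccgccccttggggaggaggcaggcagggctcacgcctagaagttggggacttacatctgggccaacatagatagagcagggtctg
Igtp: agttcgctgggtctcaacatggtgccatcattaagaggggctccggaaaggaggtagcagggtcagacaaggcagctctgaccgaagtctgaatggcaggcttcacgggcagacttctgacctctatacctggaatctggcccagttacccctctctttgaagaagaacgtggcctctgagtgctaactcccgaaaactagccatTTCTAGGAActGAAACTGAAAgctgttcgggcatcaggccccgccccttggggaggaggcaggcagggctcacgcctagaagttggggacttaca
Gbp5: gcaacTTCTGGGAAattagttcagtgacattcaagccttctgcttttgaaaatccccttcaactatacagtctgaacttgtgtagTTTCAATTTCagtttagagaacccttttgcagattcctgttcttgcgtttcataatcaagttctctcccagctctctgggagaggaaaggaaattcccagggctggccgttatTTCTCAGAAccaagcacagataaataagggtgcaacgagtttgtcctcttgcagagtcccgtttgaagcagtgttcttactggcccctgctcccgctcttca
Gbp2: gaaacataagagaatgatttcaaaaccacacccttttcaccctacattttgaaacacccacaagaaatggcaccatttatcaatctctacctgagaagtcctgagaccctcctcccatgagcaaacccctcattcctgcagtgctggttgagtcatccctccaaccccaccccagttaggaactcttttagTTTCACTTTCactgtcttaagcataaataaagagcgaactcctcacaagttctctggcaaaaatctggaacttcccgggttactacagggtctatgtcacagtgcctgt

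An ISRE core was found in the windows of 7 of the 7 members, against 3.44% of 32851 RefSeq windows of the same length (Gbp3 has a second window, which holds none). A GAS match was found for 4 members, Gbp5, Gbp7, Irgm2 and Igtp, against 8.30% of windows, and both motifs stood together in 0.454% of all windows. In Irgm2 and Igtp the GAS and the ISRE core stand side by side, 2 bases apart, beginning 75 and 64 bases before the start in Irgm2 and 45 and 34 bases before it in Igtp. The Irgm2 and Igtp windows are themselves near copies, with 244 of 265 aligned bases identical (92.1%). Irgm1 has no GAS match in its window and has a pair of ISRE cores that overlap by their shared GAAA, beginning 30 and 24 bases before the start. Gbp2 likewise has an ISRE core without a GAS match, and Gbp5 has an ISRE core between its 2 GAS matches. Starts are those of RefSeq. The Irgm2 and Gbp5 windows lie inside the deposited genes, which begin at 58199618 (Irgm2) and 142493978 (Gbp5). A match describes letters in these windows and is not evidence of a bound factor.

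The members lie on 3 chromosomes (build mm10, coordinates as deposited, all protein-coding). On chromosome 3, Gbp5 (142493978 to 142522344), Gbp7 (142530342 to 142550149), Gbp3 (142560026 to 142573209) and Gbp2 (142620602 to 142638008) follow each other on the plus strand. On chromosome 5, Gbp9 (105077630 to 105139539), Gbp4 (105115767 to 105139586) and Gbp6 (105270702 to 105293698) lie on the minus strand. On chromosome 11, Irgm1 (48861968 to 48871683, minus strand) lies apart from Igtp (58199556 to 58207591) and Irgm2 (58199618 to 58222782), which overlap on the plus strand.

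Close relatives limit how well some members can be told apart. Of the 50-base stretches of Gbp6 transcripts, 70.7% also occur in other genes, mainly Gm43302 and Gbp10, so Gbp6 is an uncertain value. Gm43302 itself was given 0 to 6 reads in each library. Irgm2 and Igtp share 162 exonic bases, which are 4.39% of the Irgm2 exons and 8.01% of the Igtp exons. Gbp4 and Gbp9 share 60 exonic bases, and 12.7% of the 50-base stretches of Gbp7 occur elsewhere. For the remaining members the share was at most 11.8%, which was that of Igtp. The sources used here do not give the read length or say how reads with several matches were treated.

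Values are normalized reads, that is reads per gene divided by the library's size factor, on 1 scale over the 9 libraries. Over the genes in both tables the libraries held 20295862 to 23599685 reads. A gene is said to rise or fall where its Benjamini-Hochberg adjusted p, over all genes tested with limma, was under 0.05, and errors on log2 fold changes are standard errors. Macrophage markers were abundant in every library: the 8 markers summed to 191637 to 243638 normalized reads in LPS with NCT503, 349685 to 384922 in LPS and 274140 to 349777 in control, with none at 0. Of these markers 4 fell with NCT503, among them Fcgr1, Lyz2 and Mertk.

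LPS raised the RNA of all 10 GTPases. Their median log2 fold change in LPS against control was 3.66, against −0.05 over the 19975 genes tested, and in each of the 10 genes every LPS library lay above every control library. Of all genes tested, 41.8% were called, 20.5% as higher and 21.4% as lower, and 24.4% were higher without overlap. Together the members took 0.367, 0.212 and 0.315% of reads in the LPS libraries, against 0.0518, 0.0334 and 0.0256% in the control libraries.

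**Figure D1:**
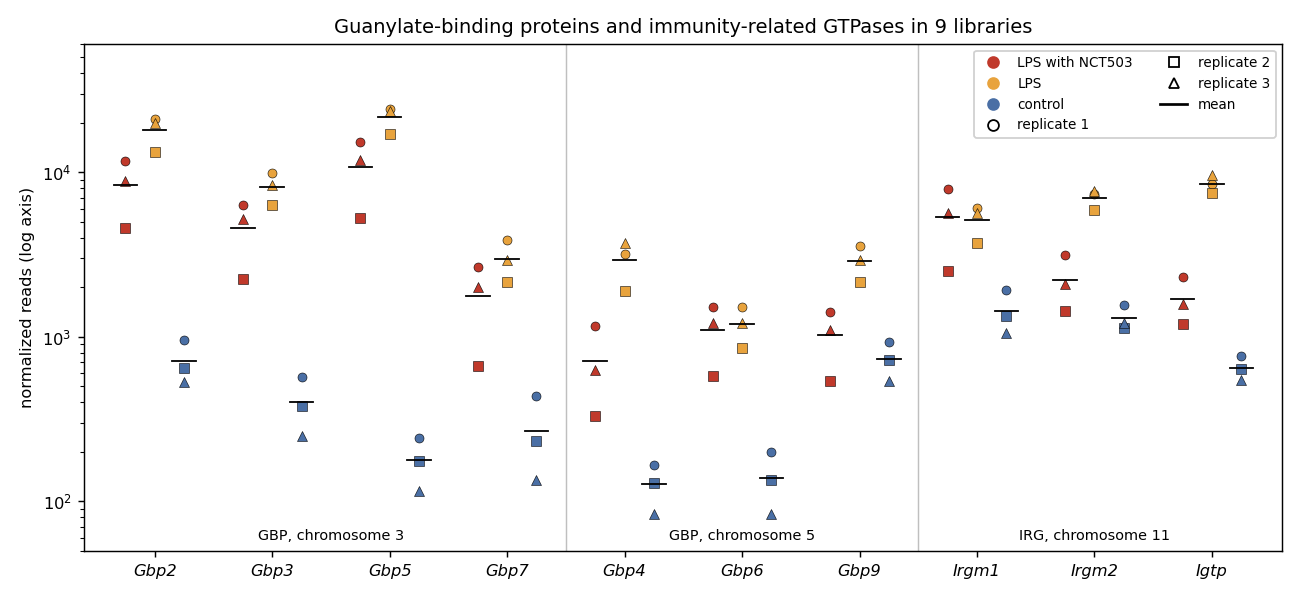
Normalized reads (log axis) of the 10 GTPase genes in each library, with groups side by side in the order LPS with NCT503, LPS and control. Points are libraries, marker shape is the replicate number and bars are means of 3. Every LPS point lies above every control point of the same gene, and the square of LPS with NCT503 is the lowest of its group for all 10 genes.

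Among the GBPs of chromosome 3, whose deletion as a cluster in mice impairs the cytosolic LPS response, Gbp5 had the largest log2 rise of the 10. Gbp5 counted 15131, 5264 and 11924 normalized reads in the LPS with NCT503 libraries, 24171, 16972 and 23458 in the LPS libraries and 243, 175 and 116 in the control libraries. The groups did not overlap in any pairing, and LPS against control gave a log2 fold change of 6.96 ± 0.24 (adjusted p = 3.02e-09). Gbp2, which carries a lipid anchor and coats bacterial vacuoles, counted 11620.2, 4548 and 8853 normalized reads in the LPS with NCT503 libraries, 21016, 13334 and 19798 in the LPS libraries and 949, 648 and 531 in the control libraries. It rose with LPS by 4.69 ± 0.23 (adjusted p = 3.64e-08), and its 3 groups also stood apart. Gbp3, their neighbour, counted 6339, 2251 and 5172 normalized reads in the LPS with NCT503 libraries, 9881, 6309.9 and 8314 in the LPS libraries and 569.8, 380.1 and 249.99 in the control libraries. The highest Gbp3 library of LPS with NCT503 reached into the LPS range, while control stood below both (LPS against control 4.41 ± 0.27, adjusted p = 1.7e-07). Gbp7, linked in mouse macrophages to assembly of the phagocyte oxidase, counted 2657, 664 and 2017 normalized reads in the LPS with NCT503 libraries, 3856, 2159 and 2935 in the LPS libraries and 437, 232 and 135 in the control libraries. It rose with LPS by 3.60 ± 0.37 (adjusted p = 3.82e-05), and LPS with NCT503 again overlapped with LPS.

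On chromosome 5 all 3 members rose with LPS as well. Gbp4 counted 1166, 331 and 629.9 normalized reads in the LPS with NCT503 libraries, 3178, 1894 and 3701 in the LPS libraries and 167, 129.5 and 84.1 in the control libraries. Its 3 groups were fully separate, with LPS against control at 4.52 ± 0.28 (adjusted p = 2.12e-07). Gbp6, with the limit given above, counted 1509, 575 and 1213 normalized reads in the LPS with NCT503 libraries, 1510.2, 859 and 1212 in the LPS libraries and 198, 135 and 84.1 in the control libraries. Here the 2 LPS-treated groups covered nearly the same range, both far above control (LPS against control 3.14 ± 0.29, adjusted p = 5.88e-06). Gbp9 counted 1414, 535 and 1106 normalized reads in the LPS with NCT503 libraries, 3549, 2136 and 2926 in the LPS libraries and 933, 721 and 535 in the control libraries. It had the highest control level of the chromosome 5 members, also per kilobase, and rose with LPS by 1.99 ± 0.23 (adjusted p = 3.27e-05). The LPS with NCT503 libraries of Gbp9 overlapped with control, not with LPS.

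The IRGs were already present in control cells, as were Gbp2 and Gbp9 at the levels given above. Irgm1, the regulator needed in mice for defence against mycobacteria and other vacuolar microbes, counted 7923, 2522 and 5654 normalized reads in the LPS with NCT503 libraries, 6042, 3719 and 5632 in the LPS libraries and 1919.8, 1344 and 1058 in the control libraries. It had the smallest LPS response of the 10, 1.85 ± 0.24 (adjusted p = 7.43e-05), and its 2 LPS-treated groups overlapped. Irgm2, a regulator that in mice restrains caspase activation by cytosolic LPS, counted 3125, 1429.6 and 2102 normalized reads in the LPS with NCT503 libraries, 7319, 5878 and 7653 in the LPS libraries and 1569, 1122 and 1208 in the control libraries. It rose with LPS by 2.43 ± 0.17 (adjusted p = 6.28e-07), and in LPS with NCT503 it lay between control and LPS except that replicate 2 fell within the control range. Igtp, which locates to the endoplasmic reticulum, counted 2311, 1199.7 and 1591 normalized reads in the LPS with NCT503 libraries, 8482, 7496 and 9539.8 in the LPS libraries and 762, 634 and 546 in the control libraries. It rose with LPS by 3.73 ± 0.17 (adjusted p = 1.68e-08), and its 3 groups did not overlap.

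Levels were compared between genes as normalized reads per kilobase of exon. In LPS, Gbp2 had the highest level per kilobase (7174 ± 1641, SD, n = 3), followed by Igtp (4207 ± 505), Gbp5 (3244 ± 598), Gbp3 (2502 ± 548) and Irgm2 (1883 ± 256). Irgm1 (883 ± 213), Gbp9 (555 ± 137), Gbp7 (531 ± 151), Gbp4 (390 ± 124) and Gbp6 (200 ± 54.7) followed. At the steps below Gbp2, below Igtp and below Irgm2 the library ranges did not overlap, whereas those of every other pair of neighbours in this order did. With lengths of the longest transcript instead, Gbp5 reached 5733 per kilobase in LPS and stood above Igtp.

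The order per kilobase differed between groups. In LPS with NCT503 it began with Gbp2 (3315 ± 1416), Gbp5 (1623 ± 758) and Gbp3 (1405 ± 645), followed by Irgm1 (924 ± 467), Igtp (841 ± 279) and Irgm2 (601 ± 231). In control cells Irgm2 (352 ± 64.2), Igtp (320 ± 53.7) and Gbp2 (282 ± 85.7) led, and Gbp5 (26.8 ± 9.53) had rank 8. Igtp had rank 5 per kilobase in LPS with NCT503 and rank 2 in both LPS and control. In LPS with NCT503 the ranges of all neighbours in the order overlapped, and in control those of all but Irgm1 (248 ± 75.6) and Gbp9 (141 ± 38.4), so most single steps of these orders are not resolved with 3 libraries.

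NCT503 lowered part of this GTPase response. In LPS with NCT503 against LPS, 6 of the 10 genes fell and none rose, where 15.7% of the 19795 genes tested fell and 16.9% rose (32.6% called in all). Those that fell were Igtp, Gbp4, Irgm2, Gbp9, Gbp2 and Gbp5, 4 of 7 GBPs and 2 of 3 IRGs, and in each of the 6 every LPS with NCT503 library lay below every LPS library. Of all genes, 22.0% were lower without overlap. The median log2 fold change of the 10 was −1.15, against 0.08 over all genes tested. In bulk RNA such as this, fewer cells that make a transcript and less of it per cell cannot be told apart.

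**Figure D2:**
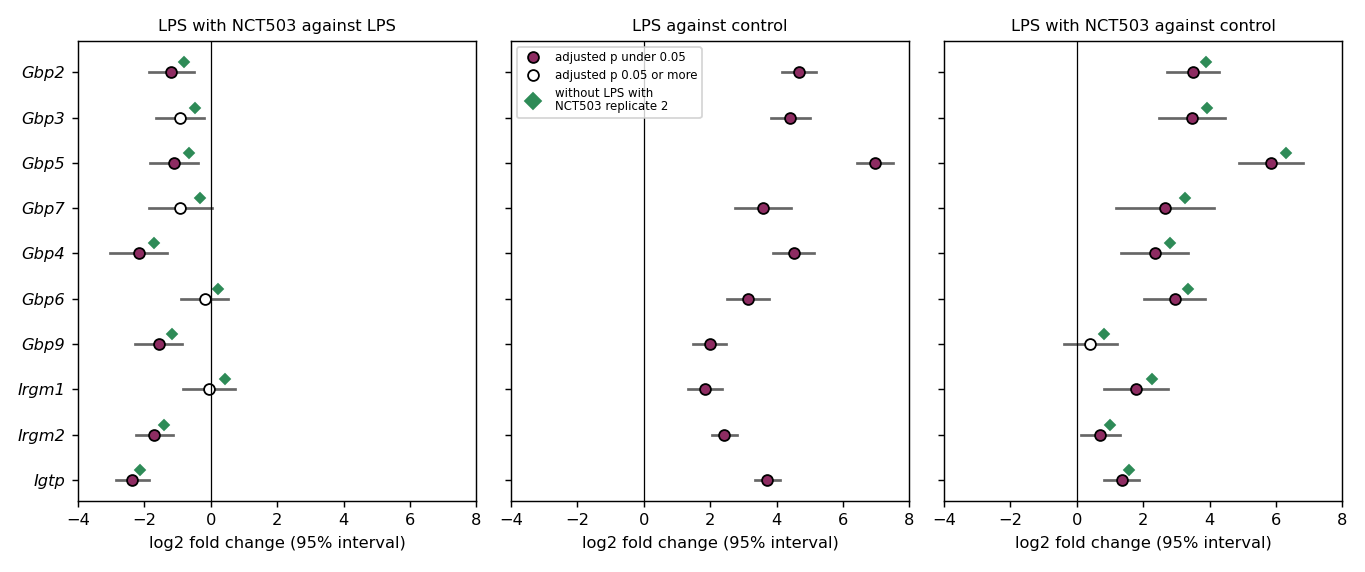
Log2 fold changes of the 10 GTPase genes with 95% intervals in LPS with NCT503 against LPS, LPS against control and LPS with NCT503 against control (n = 3 libraries a group). Filled circles passed an adjusted p of 0.05, open ones did not, and diamonds are the values without LPS with NCT503 replicate 2. Igtp and Gbp4 lie farthest to the left in the first panel, Irgm1 and Gbp6 at its zero line, and all 10 lie to the right of zero in the second.

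Of the IRG regulators, Igtp and Irgm2 fell with NCT503 and Irgm1 did not pass. Igtp fell by 2.37 ± 0.23 on the log2 scale (adjusted p = 2.1e-05), to 20.0% of its mean LPS level. Irgm2 fell by 1.71 ± 0.26 (adjusted p = 0.000418), to 31.9% of it. Irgm1 had a log2 fold change of −0.05 ± 0.35 (adjusted p = 0.924, 95% interval −0.83 to 0.72), so that changes within this interval remain possible. Its interval does not reach those of Irgm2 (−2.27 to −1.15) or Igtp (−2.87 to −1.86), although the difference between genes was not itself tested. The same genes can be set side by side within each library, where size factors cancel. The ratio of Igtp to Irgm1 reads was 0.292, 0.476 and 0.281 in LPS with NCT503, 1.40, 2.02 and 1.69 in LPS and 0.397, 0.472 and 0.516 in control. All 3 LPS libraries thus had more Igtp than Irgm1 reads, and the other 6 had fewer. These reads are not divided by length. Per kilobase of exon, Igtp also stood above Irgm1 in each control library (377, 314 and 270 against 330, 231 and 182). It did so too in LPS with NCT503 replicate 2 (593 against 434), but not in replicates 1 and 3. The ratio of Irgm2 to Irgm1 was 0.394, 0.567 and 0.372 in LPS with NCT503, 1.21, 1.58 and 1.36 in LPS and 0.817, 0.835 and 1.14 in control. Both ratios were chosen after the values were seen and carry no test.

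Under NCT503 the GBPs ranged from 24.2% to 92.1% of their mean LPS level. On chromosome 5, Gbp4 fell by 2.17 ± 0.39 (adjusted p = 0.00141), the lowest of these shares, and Gbp9 by 1.57 ± 0.32 (adjusted p = 0.00311), to 35.5%. Gbp6, from the same cluster, was at −0.19 ± 0.33 (adjusted p = 0.684, 95% interval −0.91 to 0.53) and had the highest share. The ratio of Gbp4 to Gbp6 reads was 0.773, 0.575 and 0.519 in LPS with NCT503, 2.10, 2.20 and 3.05 in LPS and 0.841, 0.959 and 1.00 in control. All 3 LPS libraries had a ratio above 2, and the other 6 had ratios of at most 1.00. The ratio of Gbp9 to Gbp6 reads was 0.937, 0.929 and 0.912 in LPS with NCT503 and 2.35, 2.49 and 2.41 in LPS. In control it was 4.71, 5.34 and 6.36, above LPS. These ratios, too, were chosen after the values were seen, and both rest on the uncertain value of Gbp6.

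On chromosome 3, Gbp2 fell by 1.19 ± 0.31 (adjusted p = 0.0123) and Gbp5 by 1.11 ± 0.33 (adjusted p = 0.0231), to 46.2% and 50.0% of their LPS levels. These 2 calls are the less firm of the 6: without LPS replicate 3 neither passed (adjusted p = 0.0604 for Gbp2 and 0.0911 for Gbp5), and without LPS replicate 1 Gbp5 did not (adjusted p = 0.0761). Gbp3, at −0.94 ± 0.33 (adjusted p = 0.0501) and 56.2% of its LPS level, missed the threshold narrowly. Without LPS with NCT503 replicate 1 it passed (log2 −1.23, adjusted p = 0.0201), as it did in the authors' deposited table (log2 −0.83, adjusted p = 0.031). Gbp7, at −0.92 ± 0.43 (adjusted p = 0.126), had a 95% interval of −1.87 to 0.03 and, of the fits that left out a library, passed only in the one without LPS with NCT503 replicate 1 (log2 −1.32, adjusted p = 0.0366). The ratio of Gbp5 to Gbp2 reads was 1.30, 1.16 and 1.35 in LPS with NCT503 and 1.15, 1.27 and 1.18 in LPS, which overlap, and 0.256, 0.270 and 0.219 in control.

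**Figure D3:**
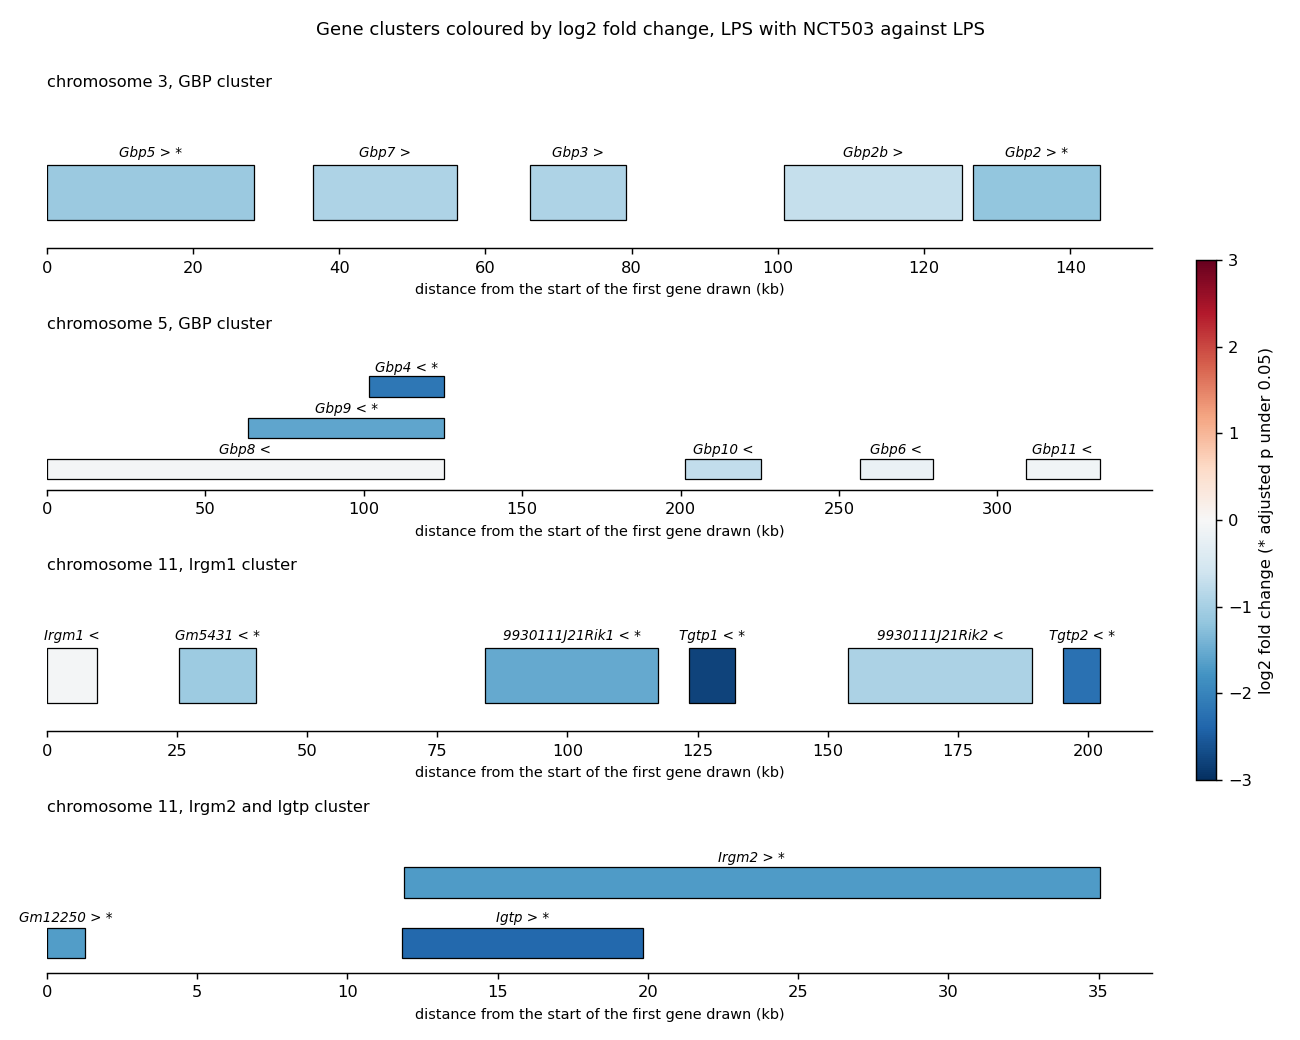
The GBP and IRG clusters of the members on 3 chromosomes (chromosome 11 in 2 stretches). Each gene is drawn to scale by its distance in kilobases from the first gene. Colour is the log2 fold change in LPS with NCT503 against LPS. An arrowhead gives the strand and an asterisk an adjusted p under 0.05. Gbp4 and Gbp9 are darker than Gbp6, and Igtp and Irgm2 darker than Irgm1.

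Relative to control, most members were still raised in the presence of NCT503. In LPS with NCT503 against control, 9 of the 10 rose and none fell, where 20.7% of 19930 genes rose and 19.7% fell (40.4% called). Gbp5 was highest at 5.84 ± 0.41 (adjusted p = 1.9e-05), with Gbp2 at 3.49 ± 0.35, Gbp3 at 3.47 ± 0.43, Gbp6 at 2.95 ± 0.40, Gbp7 at 2.67 ± 0.62, Gbp4 at 2.35 ± 0.44, Irgm1 at 1.79 ± 0.41 and Igtp at 1.35 ± 0.23. Irgm2, at 0.71 ± 0.26 (adjusted p = 0.0493), passed only just. It did not pass without LPS with NCT503 replicate 1 (adjusted p = 0.180) or 3 (0.115) or without control replicate 2 (0.156) or 3 (0.143), and Gbp7 did not without control replicate 2 (adjusted p = 0.0529). Gbp9, at 0.41 ± 0.35 (adjusted p = 0.397, 95% interval −0.39 to 1.20), did not pass, though without LPS with NCT503 replicate 2 it did (log2 0.81, adjusted p = 0.0104). This comparison shares its LPS with NCT503 libraries with the one before and its control libraries with LPS against control. As a description of means, the excess over control in LPS with NCT503 was 13.4% of that in LPS for Igtp, 13.5% for Gbp9, 16.3% for Irgm2 and 20.8% for Gbp4, against 44.0% for Gbp2, 49.6% for Gbp5, 53.9% for Gbp3, 55.7% for Gbp7, 91.0% for Gbp6 and 106% for Irgm1. These shares moved with single libraries. Without LPS with NCT503 replicate 1 they were 9.52% for Igtp, 4.24% for Gbp9, 8.25% for Irgm2 and 12.6% for Gbp4. Without LPS with NCT503 replicate 2 they were 16.6%, 24.8%, 23.3% and 27.6% for the same genes. Among the other 6, leaving out these libraries gave 34.6% and 54.9% for Gbp2, the lowest of them in the means, and 71.7% and 145% for Irgm1, the highest.

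Within each group the libraries ranked alike for nearly all members. LPS with NCT503 replicate 2 was the lowest of its group in 10 of 10 genes, LPS replicate 2 in 10 of 10, and control replicate 3 in 9 of 10, while control replicate 1 was the highest in 10 of 10. On the log2 scale LPS with NCT503 replicate 2 deviated from the other libraries of its group by a median of −1.29 over the members (−1.80 to −0.68), against a median deviation of 0.04 (SD 0.60) over 10683 genes. In that library the fifth of genes with the shortest exons deviated by a median of 0.24 and the fifth with the longest by −0.31. LPS replicate 2 (0.23 and −0.20) and control replicate 3 (0.29 and −0.14) had the same pattern with length. The part of this in the members' values was not tested. Without LPS with NCT503 replicate 2 the same 6 members fell, with log2 fold changes of −2.14 for Igtp, −1.71 for Gbp4, −1.42 for Irgm2, −1.16 for Gbp9, −0.80 for Gbp2 and −0.66 for Gbp5. Gbp3 was then at −0.48, Gbp7 at −0.32, Gbp6 at 0.22 and Irgm1 at 0.42, none of which passed, and against control all 10 rose.

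**Figure D4:**
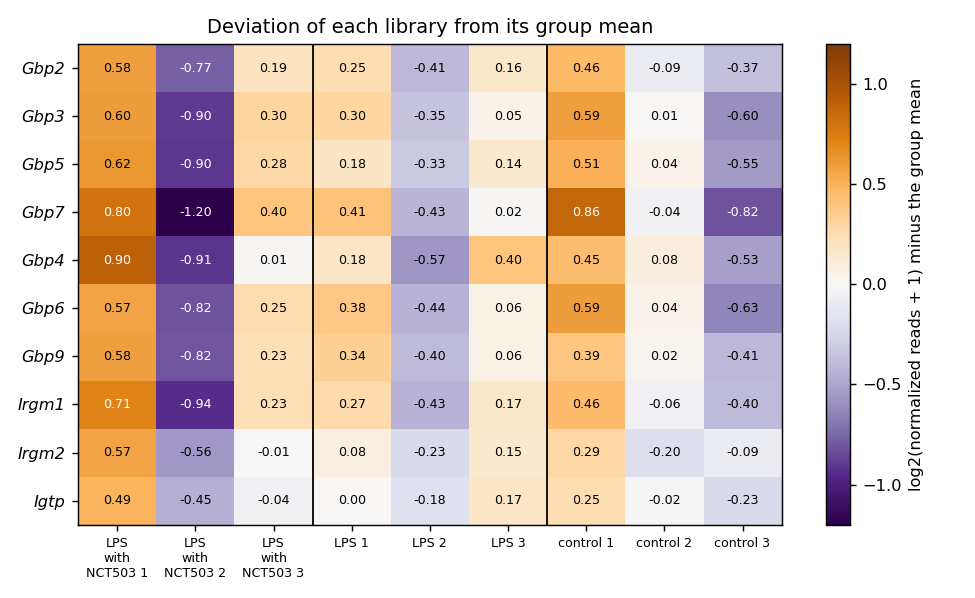
Deviation of log2(normalized reads + 1) from the group mean for each of the 10 GTPase genes (rows) in the 9 libraries (columns, in the order LPS with NCT503, LPS and control). Orange is above the group mean and purple below, and the column of LPS with NCT503 replicate 2 runs from −1.20 (Gbp7) to −0.45 (Igtp).

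Among relatives of the members, too, some fell with NCT503 and others did not pass. Of 15 other IRGs and large interferon-induced GTPases, 10 rose with LPS, and with NCT503 9 fell and none rose (median log2 −1.25). The effector IRGs Iigp1, Tgtp1 and Tgtp2 were among those that fell. Iigp1 counted 4411, 1515 and 2354 normalized reads in the LPS with NCT503 libraries against 10398, 8331 and 11856 in the LPS libraries (−2.01 ± 0.32, adjusted p = 0.00063). Tgtp2 (−2.23 ± 0.26) and Tgtp1 (−2.78 ± 0.40) fell as well, but 81.2% of Tgtp1 and 86.6% of Tgtp2 50-base stretches occur elsewhere, mostly in each other, and their split is uncertain. Gm4841 (−2.24 ± 0.49), Gm12250 next to Igtp (−1.68 ± 0.29), Gm5431 (−1.09 ± 0.33) and 9930111J21Rik1 (−1.54 ± 0.46) fell too, the last with 83.2% of its stretches shared. Gm12250 is annotated as a processed pseudogene, a label that was not checked here. The dynamin-like Mx1 (−1.66 ± 0.33) and Mx2 (−1.25 ± 0.27), the latter annotated as a polymorphic pseudogene, completed the 9. Gm4951 (−0.54), F830016B08Rik (−0.13), 9930111J21Rik2 (−0.94), Irgc1 (0.16), Irgq (0.44) and Gvin1 (0.39) did not pass. Of the 50-base stretches, 99.2% of Gvin1, nearly all in Gm4070, 59.8% of 9930111J21Rik2 and 37.3% of Gm5431 occur in other genes, so these values are uncertain too. Irgq and Irgc1, which are not interferon-induced in mice, also did not pass with LPS (0.04 and 0.14).

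Of the other 4 GBPs, Gbp2b, Gbp10 and Gbp11 had few reads, while Gbp8 had 67 to 578 in each library. None of the 4 passed with NCT503 in limma, edgeR or DESeq2 (0 of 4 at an unadjusted limma p under 0.05, the smallest being 0.176 for Gbp2b). Gbp8 counted 208, 95.7 and 144 in LPS with NCT503, 182, 91.4 and 194 in LPS and 395, 286 and 192 in control. It fell with LPS (−0.91 ± 0.32, adjusted p = 0.0396), opposite to the 10 members, although without LPS replicate 2, control replicate 1 or control replicate 2 it did not pass, nor with a pseudocount of 0.1, quantile normalization or all 9 libraries in one fit. Gbp8 overlaps Gbp9 and Gbp4 on the same strand, with 60 and 61 exonic bases shared, and 18.1% of its 50-base stretches occur in other genes. Gbp10 counted 61.2, 10.4 and 32.5 in LPS with NCT503, 44.9, 35.5 and 65.6 in LPS and 4.78, 4.2 and 4.01 in control, with 84.1% of its stretches shared, and rose with LPS by 3.19 ± 0.37. Gbp11, annotated as a polymorphic pseudogene, rose by 2.96 ± 0.43 at 26.0 to 68.3 normalized reads in LPS with NCT503 and 34.1 to 68.2 in LPS. Gbp2b, the neighbour of Gbp2 on chromosome 3, stayed at 2.10 to 9.55 normalized reads over the 9 libraries.

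The RNAs of interferon-β and interferon-γ moved in opposite directions under NCT503. Their part in the GTPase values was not tested. Ifnb1, the interferon-β that macrophages make after LPS, counted 186, 83.2 and 150.4 in LPS with NCT503, 19.6, 30 and 19.7 in LPS and 6.15, 3.5 and 2.4 in control. It was higher in LPS with NCT503 than in LPS by 2.49 ± 0.34 (adjusted p = 0.000234), without overlap. Ifng, interferon-γ, a product mainly of T and natural killer cells, counted 239, 46.8 and 122 in LPS with NCT503, 771, 683 and 1604 in LPS and 2.73, 0.7 and 0.801 in control. It fell by 3.07 ± 0.52 (adjusted p = 0.00142) after a rise of 8.74 ± 0.40 with LPS, a value that depends on the pseudocount because control libraries held at most a few reads.

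Markers of T and natural killer cells were counted beside Ifng. Of 12 such markers 4 rose and 2 fell with LPS against control, and 9 fell with NCT503, among them Nkg7 (−2.38), Gzma (3.06, 0 and 0 normalized reads in LPS with NCT503 against 17.3, 21.8 and 39.3 in LPS), Gzmb (−2.60) and Lck (−2.07), and Cd4, which macrophages can also express, rose (1.08). Klrb1c, a natural killer cell receptor, was at 1.92 ± 0.68 (adjusted p = 0.0505), opposite to the markers that fell, and did not pass. The 11 markers without Cd4 summed to 292, 110 and 193 normalized reads in LPS with NCT503, 631, 863 and 1424 in LPS and 421, 259 and 298 in control, with none at 0 in all libraries of a group. Markers of neutrophils (7 of 7 measured, 237 to 497 summed normalized reads in LPS with NCT503, 2385 to 5758 in LPS and 3960 to 6810 in control) and of mast cells and basophils (5 of 5, 212 to 243 in LPS with NCT503, 734 to 995 in LPS and 620 to 711 in control) fell as well. The neutrophil marker Cxcr2 was at 0 in LPS with NCT503, and without LPS replicate 3 only 3 of the mast cell and basophil markers passed. Among 8 stromal and fibroblast markers, 5 were called higher in LPS than in control, and Pdgfrb (−2.59), Thy1 (−3.54) and Pdgfra (−1.83) fell with NCT503, while the collagens Col1a1 (0.12), Col1a2 (0.21) and Col3a1 (−0.35) did not pass. Their sums were 16136 to 41342 normalized reads in LPS with NCT503, 16232 to 35137 in LPS and 5542 to 25425 in control. Of 7 measured dendritic cell markers 3 rose and 1 fell with LPS, and 1, Ccr7 (−1.63), fell with NCT503, with Siglech at 0 in that group. They summed to 245 to 391 normalized reads in LPS with NCT503, 682 to 877 in LPS and 189 to 213 in control. Of 3 measured B cell markers Cd79a fell with NCT503, at 0 to 1.04 normalized reads in LPS with NCT503 and 2.30 to 13.1 in LPS, though not without LPS with NCT503 replicate 1 or 3 or LPS replicate 2 or 3. The part of these cell types in the GTPase values was not tested.

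**Figure D5:**
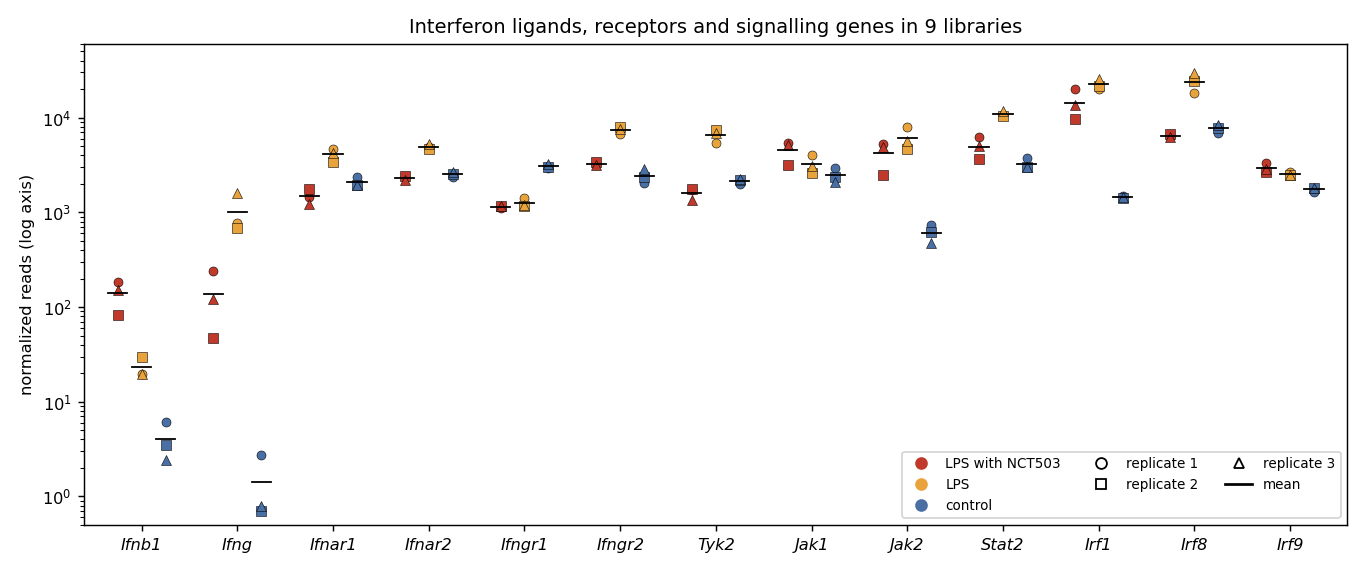
Normalized reads (log axis) of interferon ligands, receptor chains and signalling genes in each library, groups in the order LPS with NCT503, LPS and control. Points are libraries, shapes replicate numbers and bars means of 3. Ifnb1 is highest in LPS with NCT503, whereas Ifng, Tyk2 and Irf8 are highest in LPS.

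Receptor chains and signalling genes mostly fell with NCT503. Of the 6 measured interferon and receptor genes, 4 fell and 1, Ifnb1, rose. Ifnar1 (−1.48 ± 0.19) and Ifnar2 (−1.09 ± 0.15), the chains of the interferon-α/β receptor, and Ifngr2 (−1.19 ± 0.16), a chain of the interferon-γ receptor, fell. Ifngr1, the ligand-binding chain, named after its values were seen, was at −0.14 ± 0.16 and did not pass. Of 13 JAK kinases, STAT factors and IRFs 10 fell and none rose. Tyk2, the kinase on Ifnar1, counted 1723, 1781 and 1346 normalized reads in the LPS with NCT503 libraries against 5395, 7476 and 6898 in the LPS libraries (−2.02 ± 0.19, adjusted p = 1.61e-05). All 3 Tyk2 libraries of the inhibitor lay below those of LPS. Irf8 (−1.86 ± 0.20), Irf5 (−1.75 ± 0.19) and Irf2 (−1.51 ± 0.20) fell, as did Irf1, a direct activator of GBP genes in mice (−0.70 ± 0.24, adjusted p = 0.0448). Jak1 (0.49), Jak2 (−0.57) and Irf9 (0.22) were the 3 that did not pass.

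Of 7 genes that act as brakes on interferon signalling, 4 fell, 1 rose and 2 did not pass. Socs1, which blocks JAK kinases, counted 1094, 991 and 849.6 normalized reads in the LPS with NCT503 libraries against 6495, 12186 and 14852 in the LPS libraries (−3.44 ± 0.27, adjusted p = 5.16e-06). Socs3 (−2.66 ± 0.22), the phosphatase Ptpn6 (−2.36 ± 0.17) and Usp18, which binds the type I receptor (−2.0 ± 0.20), fell likewise. Ptpn2, a phosphatase for JAK and STAT proteins, rose (0.86 ± 0.25, adjusted p = 0.0226), but did not pass without LPS with NCT503 replicate 1 or 3 or without LPS replicate 2 or 3.

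Other interferon-stimulated genes were counted beside the GTPases. All 27 rose with LPS, and with NCT503 15 fell and none rose (median log2 −0.86). The chemokines Cxcl9 (−3.11 ± 0.28) and Cxcl10 (−2.56 ± 0.28) and the oligoadenylate synthetases Oas1a (−1.44 ± 0.18) and Oas3 (−1.36 ± 0.20) fell. Ifit1 (0.01, 95% interval −0.58 to 0.61) and Rsad2 (−0.07, −0.83 to 0.69), antiviral genes named after their values were seen, did not pass. Without LPS with NCT503 replicate 2, 13 of these genes fell and 2 rose, and the counts were 9 and 1 for the other IRGs and large GTPases and 9 and 1 for the JAK, STAT and IRF genes.

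GBPs act beside the caspase and pore that respond to LPS in the cytosol. Of 9 genes of inflammasomes and pyroptotic cell death, a list wider than this caspase and pore, 8 rose with LPS. With NCT503, 6 of the 9 fell and none rose. Casp4, the mouse gene of that caspase, counted 2394, 1482 and 2055 in LPS with NCT503, 2582, 2684 and 2514 in LPS and 163, 204 and 204 in control, and its difference with NCT503 did not pass (−0.42 ± 0.20, adjusted p = 0.129). Gsdmd, the pore-forming protein, counted 2052, 1839.6 and 1952 in LPS with NCT503, 4441, 5617 and 5675 in LPS and 1343, 1287 and 1392 in control and fell (−1.42 ± 0.17, adjusted p = 8.6e-05). The cytokines Il1b (−3.77 ± 0.16) and Il18 (−2.74 ± 0.27) and the adaptor Pycard (−1.64 ± 0.20) fell with it.

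Outside the 10 members, the genes whose pattern over the 9 libraries lay nearest to the mean standardized profile of the members were Nlrc5, Cers6, Mx1, Il2rg, Usp25 and Jarid2. Their Pearson coefficients ran from 0.996 to 0.999 over 9 libraries among 10168 genes, against 0.891 (Gbp9) to 0.989 (Gbp4) for single members, which are part of that profile. The 9 points fall into 3 groups, so the coefficient mostly reflects group differences that the genes share, and it is given as a description. Nlrc5, the transactivator of MHC class I genes, counted 5498, 2439 and 4265 in LPS with NCT503, 8405, 6898 and 7912 in LPS and 1535, 1119 and 873 in control. Like Gbp2 it had its lowest value of each group in LPS with NCT503 replicate 2, LPS replicate 2 and control replicate 3.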

How the data were processed

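RNA was measured in 9 libraries of bone marrow-derived macrophages, 3 per group. Reads were aligned with TopHat2 to mm10, per the submitters' processing notes, while the sources used here do not give versions, the counter, the annotation, the strand setting or the differential test. The authors deposited, for LPS with NCT503 against LPS and for LPS against control, signal per gene and library (reads divided by a size factor, per the file headers and the values), with their log2 fold change and p-value.

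In 100% of values the signal came out as whole reads (tolerance 0.001). The size factors equal those of DESeq2's median of ratios, and the LPS libraries were identical in both tables. The plan set edgeR for raw counts and another test for scaled values, size-factor-scaled reads included, so the latter test was used. It was limma-trend (limma 3.58.1, R 4.3.3) on log2(normalized reads + 1), for genes with a mean of at least 1 in one group, each comparison on its own libraries, with Benjamini-Hochberg adjustment over all genes. Such fold changes understate the change of genes with few reads. LPS with NCT503 against control was fitted on the 9 libraries scaled together, the scale of all values printed per library. edgeR 4.0.16 and DESeq2 1.42.0 were run on the recovered reads as alternatives. The fit was tested on simulated data. Exon lengths, overlaps and shared 50-base stretches came from GENCODE M21.

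The members and gene lists were chosen with earlier results of these data known. Named outside the members are all other GBPs, IRGs and large GTPases of the lists, Ifnb1, Ifng, Irf1, Irf8, Casp4 and Gsdmd, up to 4 genes of each further list by smallest p, the genes of counts of 5 or fewer, and the 6 nearest in pattern. Some genes that this rule or these counts take in are not reported here by name. Replicate numbers were not used as pairs.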

Additional observations from a re-analysis of the deposited data

How the results depend on the processing

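All 10 members rose with LPS under each of the 18 alternatives, those that left out a library included. In LPS with NCT503 against LPS 6 members were called in the analysis reported, 4 to 8 when a library was left out (genes called 4334 to 7304), 6 with TMM scaling, edgeR, another pseudocount or filter, or a log2 fold change of at least 1, 7 with DESeq2 and in the authors' deposited table (Gbp3 added), 5 with CPM scaling (without Gbp5) and 4 with quantile normalization (without Gbp2 and Gbp5). Igtp, Irgm2, Gbp4 and Gbp9 passed in all of these. In LPS with NCT503 against control 7 to 10 members were called when a library was left out (genes called 5808 to 9141), and for LPS against control 10 to 10 (genes called 6432 to 8553). Irgm2 against control did not pass with TMM (0.64), CPM (0.26) or quantile (0.38) scaling, a pseudocount of 0.1, a minimum mean of 10 or edgeR.

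Directions near zero turned. Irgm1 in LPS with NCT503 against LPS was 0.19 with CPM scaling and 0.19 with quantile normalization, 0.10 with edgeR, 0.069 with DESeq2 and 0.069 in the authors' deposited table. When a library was left out it ran from −0.41 (without LPS with NCT503 replicate 1) to 0.42 (without LPS with NCT503 replicate 2), and Gbp6 from −0.48 to 0.22 without the same libraries. Gbp6 was 0.053 and Gbp9 against control −0.046 with CPM scaling. None of these passed, and the cause was not tested. With longest-transcript lengths the level per kilobase in LPS was 644 for Gbp4, 5733 for Gbp5, 281 for Gbp6 and 1339 for Irgm1, since these genes have exons outside that transcript.

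CPM scaling moved the median log2 fold change of all genes by 0.24, −0.69 and −0.45 in LPS with NCT503 against LPS, LPS against control and LPS with NCT503 against control. Genes called higher and lower were then 4405 and 2137, 2092 and 8536, and 2452 and 6568, against 3351 and 3098, 4089 and 4266, and 4134 and 3927 as reported. Quantile normalization moved it by −0.19, 0.11 and −0.12, and TMM moved LPS against control by −0.10. Each member's call is relative to these shifts.

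Same-numbered libraries did not deviate together throughout (correlations 0.473, 0.474 and −0.138 for LPS with NCT503 and LPS, 0.316, 0.148 and −0.004 for LPS and control), and not every sample correlated best with its own number. With the replicate block 8186 genes and 8 members (Gbp3 and Gbp7 added) were called in LPS with NCT503 against LPS, 9714 genes and 10 members in LPS against control, and 8098 genes and 8 members in LPS with NCT503 against control, where Gbp7 (2.67, adjusted p = 0.0578) lost its call. Without the block the standard errors of Gbp3 (0.33) and Gbp7 (0.43) were larger than those of Igtp (0.23) and Irgm2 (0.26).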

Other observations

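Genes that help GBPs and IRGs onto vacuoles moved in both directions. Of 17 genes of ATG8 conjugation, ubiquitin marking and damage sensing, 5 rose and 4 fell in LPS with NCT503 against LPS, with a median log2 fold change of 0.11. Gabarapl1, an ATG8 protein, counted, in normalized reads, 3255, 3624 and 2995 in LPS with NCT503, 1216, 1451 and 1208 in LPS and 1900.0, 2245 and 2667 in control (1.35 ± 0.17, limma adjusted p = 0.000113). Its libraries with the inhibitor lay above both other groups. Sqstm1, the ubiquitin receptor p62, rose as well (1.36 ± 0.18, limma adjusted p = 0.000158), whereas Atg16l1, part of the ATG8-conjugating complex (−0.96 ± 0.17), and Trim21, an antibody receptor and ubiquitin ligase (−1.48 ± 0.25), fell. Of 5 enzymes that attach and process the lipid anchor of prenylated GBPs, 2 fell and none rose: Fnta, the subunit shared by both prenyl transferases (−0.90 ± 0.18, limma adjusted p = 0.00261), and the protease Rce1 (−0.88 ± 0.23, limma adjusted p = 0.0115). Without LPS with NCT503 replicate 3, or without LPS replicate 2, 1 of the 5 fell, and without LPS with NCT503 replicate 2 another of them rose. Fnta did not pass with LPS against control (−0.14).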
